A study of Mus musculus with 10 samples.

Results

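The semaphorins, plexins and neuropilins are a family of guidance ligands and receptors, here 20 semaphorin genes and 11 receptor genes (9 plexins and 2 neuropilins), taken by gene symbol. Accessible regions were assigned to them in the cochlea of young mice. Peaks from the lists of 3 ages that shared 1 bp or more were joined into regions, and each region went to the protein-coding gene that lay nearest, up to 100 kb away, with distance 0 inside a gene. All 31 genes had at least 1 region, as did 15865 of all 21887 protein-coding genes. They held 253 of the 59260 regions that had such a gene, 151 at the ligand genes and 102 at the receptor genes.

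The animals were CD1 mice, an outbred stock, aged 2 days (P2, 3 mice), 5 days (P5, 3 mice) and 8 days (P8, 4 mice). The labels name no treatment, mutation or sort for any of them. Nuclei came from the whole dissected cochleae of both ears of a mouse, and open chromatin was read by ATAC-seq, in which a transposase cuts and tags accessible DNA. The deposited data used here are 1 list of peaks per age, so the spread between mice of an age could not be measured, and no test was made between ages. In whole tissue, fewer cells of a type and less open chromatin per cell cannot be told apart.

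Semaphorins are secreted or membrane-bound proteins that steer growing axons and migrating cells, many of them by repulsion. Plexins are their main receptors and carry the signal into the cell, while neuropilins bind most of the secreted class 3 semaphorins and signal together with plexins. In the cochlea the family is known for its part in guiding the nerve fibres of the spiral ganglion, and elsewhere it also acts in blood vessels, bone and immune cells.

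Of the 37 promoter windows that RefSeq gives for 26 of the genes (250 bases before and 50 after a transcript start, build GRCm38.p6, the same as mm10), 7 were called open at only 1 or 2 of the ages. The bases before the start are shown for 3 of these, Sema5b, Sema6b and Sema3e. For Plxnb3, Nrp1, Sema4g and Sema4a none of the 250 bases lay outside annotated genes, so none are printed. Nrp2, Sema4f and Plxna2 are shown beside the first 3 as promoters called at all 3 ages. Only bases outside every annotated gene are printed, which leaves 42 for Sema5b and 212 for Plxna2. Each sequence runs 5′ to 3′ on the gene's own strand and is that of the reference strain C57BL/6J, not of the CD1 mice. Capitals mark the motifs searched, on both strands: the GC box GGGCGG, the CCAAT box CCAAT, the AP-1 site TGANTCA, the TATA box TATAAA and the E-box CAGCTG. Overlapping matches were counted separately. In the order shown, the stretches are chr16:35541112-35541153 (plus strand, called at P2 and P5), chr17:56140344-56140593 (minus strand, P2 alone), chr5:14025026-14025275 (plus strand, P2 and P8), and, at all ages, chr1:62703067-62703316 (plus strand), chr6:82939770-82940019 (minus strand) and chr1:194619579-194619790 (plus strand).
Sema5b: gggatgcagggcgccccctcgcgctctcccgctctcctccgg
Sema6b: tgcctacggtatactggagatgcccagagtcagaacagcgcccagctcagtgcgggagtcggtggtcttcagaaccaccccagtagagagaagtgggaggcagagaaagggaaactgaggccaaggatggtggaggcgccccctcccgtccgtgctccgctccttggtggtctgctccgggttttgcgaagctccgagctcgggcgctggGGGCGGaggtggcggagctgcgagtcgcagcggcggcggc
Sema3e: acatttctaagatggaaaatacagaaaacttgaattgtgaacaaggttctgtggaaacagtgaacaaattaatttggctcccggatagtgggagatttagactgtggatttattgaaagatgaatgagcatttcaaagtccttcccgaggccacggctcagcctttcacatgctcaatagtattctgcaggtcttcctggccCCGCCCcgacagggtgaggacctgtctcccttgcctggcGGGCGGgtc
Nrp2: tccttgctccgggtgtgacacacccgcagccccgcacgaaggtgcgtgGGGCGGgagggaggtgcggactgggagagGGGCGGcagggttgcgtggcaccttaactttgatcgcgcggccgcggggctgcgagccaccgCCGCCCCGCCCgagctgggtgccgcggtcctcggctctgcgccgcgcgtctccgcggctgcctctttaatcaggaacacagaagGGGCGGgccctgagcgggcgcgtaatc
Sema4f: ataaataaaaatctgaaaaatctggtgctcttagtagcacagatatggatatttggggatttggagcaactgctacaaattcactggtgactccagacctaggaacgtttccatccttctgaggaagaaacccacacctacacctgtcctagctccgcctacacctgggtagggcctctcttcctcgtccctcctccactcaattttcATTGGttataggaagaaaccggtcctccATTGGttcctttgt
Plxna2: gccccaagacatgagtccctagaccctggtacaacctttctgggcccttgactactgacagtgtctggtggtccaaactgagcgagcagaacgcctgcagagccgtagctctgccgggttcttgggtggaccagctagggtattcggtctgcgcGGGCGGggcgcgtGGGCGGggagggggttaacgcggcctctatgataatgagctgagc

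The printed Sema6b stretch held 1 GC box and that of Sema3e held 2, while the 42 bases of Sema5b held no match. Nrp2 had 5 GC boxes, of which 2 overlapped, and Plxna2 had 2. Sema4f differed in its letters: it held 2 CCAAT boxes, no GC box, and 46.0% G and C against 72.4% in Nrp2. Over the 250 bases before the start, a GC box was in 27 of the 37 windows (73.0%), against 42.6% of the 21263 windows of all protein-coding genes. The CCAAT box was in 7 (18.9%, against 35.4%), the E-box in 6 (16.2%, against 12.1%), the AP-1 site in 3 (8.11%, against 6.13%), and the TATA box in 0 (against 11.6%). A match describes the letters only.

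The P2 list held 52085 peaks, the P5 list 47683 and the P8 list 43878, with lowest ranking values (−log10 p) of 19.5, 13.5 and 11.4. A region outside a list was not among its peaks, which does not show that the chromatin was closed. No read counts were used here, so the depth is unknown. The place of a region in a list is its percentile within that list, where 100 is the highest rank. These places come from lists of different lengths, so they are set side by side and measure no change. Regions were present at all 19 genes of a cochlear marker list (77, 73 and 58 regions at P2, P5 and P8). Of all 21887 protein-coding genes 15865 had a region, so having one sets no list apart. Marker lists of other cell types also had regions, with 33, 29 and 22 at 7 of 8 neuron genes (none at Prph) and 38, 24 and 26 at 8 Schwann and satellite glia genes. The counts were 41, 29 and 32 at 8 endothelial genes, 6, 8 and 7 at 5 of 6 macrophage genes (none at Adgre1) and 26, 28 and 41 at 8 bone genes. There were 11, 7 and 5 at 5 muscle genes, and 17, 12 and 12 at 6 brain genes.

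Across the family, the number of called regions went from 206 at P2 to 176 at P5 and 155 at P8. Of the 206 regions called at P2, 86 were not called at P8 and are termed lost (41.7%, Wilson 95% interval 35.2 to 48.6). Over all genes 31.7% were lost, which lies below that interval. Of the 155 regions called at P8, 35 had not been called at P2 and are termed gained (22.6%, 16.7 to 29.8), with the 19.0% over all genes inside the interval. All intervals cover counting error only, and regions of a gene are not replicates. Only 105 of the 253 regions (41.5%, 35.6 to 47.7) were called at all 3 ages, against 51.9% over all genes. Over all genes more regions were lost (15260) than gained (7689), and most marker lists went the same way. Losses and gains were 36 (46.75%) and 17 (29.3%) for cochlea, 16 (48.5%) and 5 (22.7%) for neurons, and 16 (39.0%) and 7 (21.9%) for endothelium. They were 13 (34.2%) and 1 (3.85%) for Schwann and satellite glia, 7 (41.2%) and 2 (16.7%) for brain, and 6 (54.55%) and 0 for muscle. Macrophages, with 2 (33.3%) and 3 (42.9%), and bone, with 3 (11.5%) and 18 (43.9%), went the other way. The shares over all genes were 31.7% lost and 19.0% gained. The part of these cell types in the result was not tested.

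The P2 list was also the longest. When each list was limited to its top 43878 peaks, 60 of 166 regions of the family were lost (36.1%, 29.2 to 43.7) against 24.1% over all genes, and 49 of 155 were gained (31.6%, 24.8 to 39.3) against 23.6%. Gained regions were then 45.0% of the family's changes in place of 28.9%, and 49.3% in place of 33.5% over all genes. With lists of equal length, the background thus lay below the family's interval for losses and for gains alike. The same held at an IDR of at most 0.01. There 47.9% were lost (40.5 to 55.4, against 32.6%) and 26.05% gained (19 to 34.6, against 16.4%). With each list cut to its upper 50%, 36.5% were lost (27.0 to 47.1), with the 28.4% over all genes inside the interval. Gains were then 25% (16.4 to 36.1), with the 14.97% over all genes below the interval. In the remaining settings the background for gains lay inside the family's interval, as in the full lists.

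From P2 to P8, 49 of 124 ligand regions were lost (39.5%, 31.4 to 48.3) and 37 of 82 receptor regions (45.1%, 34.8 to 55.9). Gains made up 21 of 96 ligand regions at P8 (21.9%, 14.8 to 31.1) and 14 of 59 receptor regions (23.7%, 14.7 to 36.0). The 31.7% lost over all genes lies just inside the ligand interval and below that of receptors, and the 19.0% gained lies inside both. With lists of equal length, ligands lost 33.0% (24.6 to 42.7) and receptors 40.9% (29.9 to 52.95), against 24.1% over all genes. At an IDR of at most 0.01 they lost 47.1% (37.8 to 56.6) and 49.2% (37.5 to 61.1), against 32.6%. The background for losses thus lay below both intervals in either setting. With each list cut to its upper 50%, where a lost region may still stand lower in the P8 list, the order of losses turned. Losses were 22 of 56 at ligands (39.3%, 27.6 to 52.4) and 9 of 29 at receptors (31.03%, 17.3 to 49.2). The 28.4% over all genes lay inside both intervals. Absent from the whole P8 list were 6 of the 56 (10.7%) and 3 of the 29 (10.3%), against 7.53% over all genes. The intervals of ligands and receptors overlapped for losses and for gains, which does not show that the shares were the same.

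The steps between neighbouring ages were counted in the same way. From P2 to P5, when 23.8% of regions were lost over all genes, ligands lost 38 of 124 (30.6%, 23.2 to 39.2) and receptors 22 of 82 (26.8%, 18.4 to 37.3). In the same step 15.8% were gained over all genes, with 16 of 102 at ligands (15.7%, 9.89 to 23.97) and 14 of 74 at receptors (18.9%, 11.6 to 29.3). From P5 to P8, when 21.5% were lost over all genes, ligands lost 27 of 102 (26.5%, 18.9 to 35.8) and receptors 26 of 74 (35.1%, 25.2 to 46.5). Of the regions called at P8, 15.7% were gained since P5 over all genes, 21 of 96 at ligands (21.9%, 14.8 to 31.1) and 11 of 59 at receptors (18.6%, 10.7 to 30.4). The intervals of ligands and receptors overlapped in each step, and the order of their losses depended on the lists. From P2 to P5 it turned at an IDR of at most 0.01, with 28.8% at ligands and 30.8% at receptors, against 24.3% over all genes. It also turned with lists of equal length (19.0% and 19.7%, against 18.6%). The same was seen with the upper 50% of each list (23.2% and 24.1%, against 21.5%). From P5 to P8 it turned only with the upper 50% (32.7% and 20.0%, against 18.7%). In this step the 21.5% lost over all genes lay below the receptor interval and inside the ligand interval. The same held for receptors at an IDR of at most 0.01 (32.8%, 22.1 to 45.6, against 20.6%) and with lists of equal length (33.3%, 23.35 to 45.1, against 17.6%). Ligand intervals held the background in both settings. With the upper 50% the background lay inside the receptor interval and below that of ligands.

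**Figure D1:**
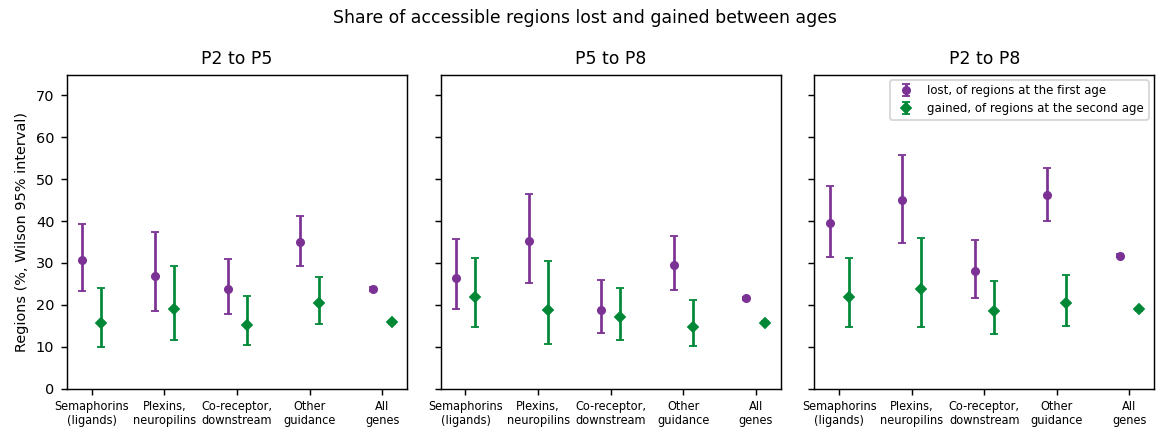
Share of regions lost (purple circles, of those called at the first age) and gained (green diamonds, of those called at the second age) in percent, with Wilson 95% intervals, for each step between ages and 5 sets of genes. At every step the ligand and receptor intervals overlap, while over all genes the losses stand at 23.8%, 21.5% and 31.7%.

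Counted by gene, 18 of the 31 genes lost more regions than they gained from P2 to P8 (a net loss), where 38.1% of all genes with a region did. A net gain was seen at 3 genes, Sema4d, Sema3a and Nrp1, where 13.9% of all genes had one, and 10 genes were even. With lists of equal length, 12 genes had a net loss and 9 a net gain. The shares of all genes with a net loss or gain are those of the full lists and were not taken in other settings. The genes with a net loss were 9 of 20 ligands and 9 of 11 receptors, but 7 of 20 and 5 of 11 with lists of equal length, where 4 receptors had a net gain (Plxna2, Plxnd1, Nrp1 and Nrp2). At an IDR of at most 0.01 they were 11 of 20 and 6 of 11. Genes of this family have many regions, a median of 6 against 2 over all genes, and over all genes net losses were more frequent where there were many regions. Among genes with 5 to 9 regions, 7 of 9 members had a net loss against 57.9% of all such genes. The counts were 5 of 13 against 30.5% at 1 to 4 regions, 3 of 5 against 66.9% at 10 to 19, and 3 of 4 against 75.4% at 20 or more. A net loss of at least 3 regions, which 6.52% of all genes had, was seen at Plxna1, Sema6d, Sema6a, Sema5b, Sema3f, Sema6b, Nrp2, Sema4f, Plxna4 and Plxnc1. Sema4d alone had a net gain of at least 3, as did 0.914% of all genes. Both shares are over 15865 genes, of which 11920 had only 1 to 4 regions, and 1 or 2 regions cannot give a net change of 3. Among all genes with 20 or more regions the median net change was -3. Shares of such changes at a like number of regions were not taken.

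**Figure D2:**
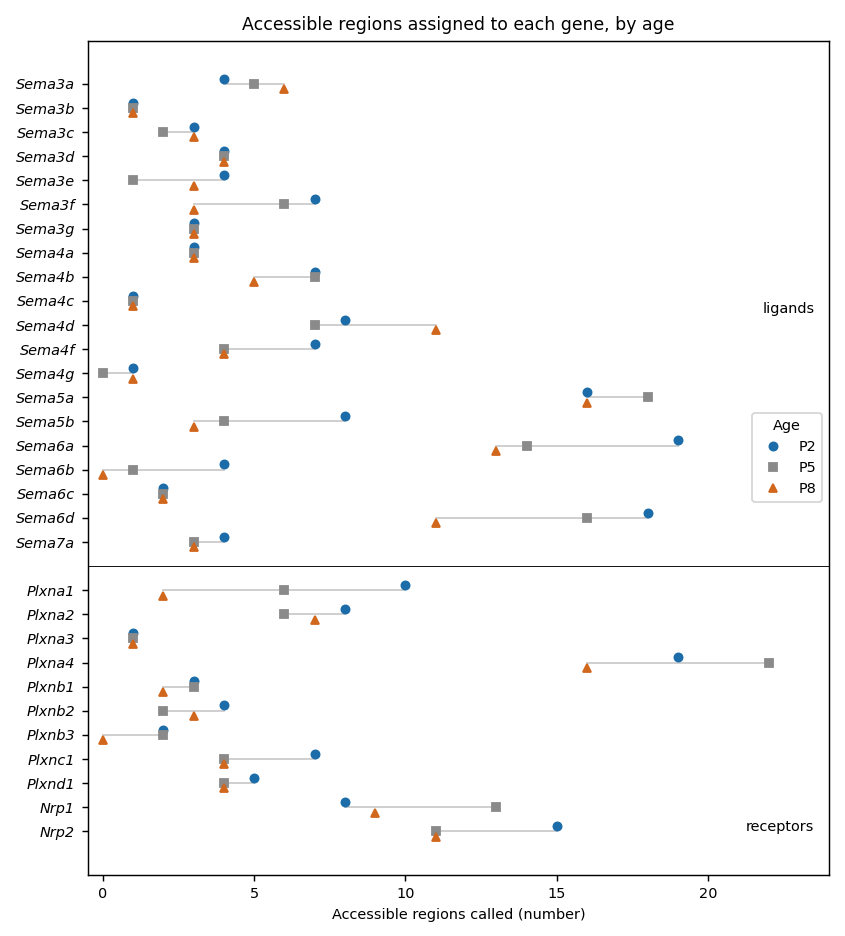
Number of accessible regions called at P2 (blue circles), P5 (grey squares) and P8 (orange triangles) for each of the 31 genes, ligands above the line and receptors below it. Plxna1 goes from 10 regions to 2 and Sema6d from 18 to 11, while Sema4d goes from 8 to 11.

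The class 3 semaphorins are secreted, and most bind neuropilins, while Sema3e binds Plxnd1 directly. Their 7 genes had 26, 22 and 23 regions at P2, P5 and P8. From P2 to P8, 8 of 26 were lost (30.8%, 16.5 to 50.0) and 5 of 23 gained (21.7%, 9.66 to 41.9). The 31.7% lost and 19.0% gained over all genes lie inside these intervals. Sema3f, a repellent that acts through Nrp2, had 7, 6 and 3 regions. Its 4 losses were 2 regions inside the gene, 19.0 and 20.3 kb from its lower end (the end with the lower coordinate), and 2 beyond its upper end, 6.6 and 13 kb away. They had stood between percentiles 22.3 and 41.1 of the P2 list, and 3 of the 4 were still called at P5. The 3 regions that stayed stood at 72.0, 79.6 and 68.4 at P2 and at 44.0, 73.9 and 75.8 at P8, so the lost regions of Sema3f were those that had ranked lower at P2. For all genes, distances into the gene are counted from the lower end, whichever strand the gene is on. Sema4a, Sema4c, Sema4d, Sema4f, Sema6b, Plxnb2, Plxnc1 and Plxnd1 are on the minus strand, so they start at the upper end. No strand was given for Sema3b, Sema3f, Sema6a, Plxna1 and Plxna4.

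Sema3a, which repels axons through Nrp1, had 4, 5 and 6 regions. The 3 gained regions lay inside the gene at 335.7, 345.7 and 400.7 kb from its lower end, at percentiles 21.8, 15.2 and 37.5 of the P8 list, and 2 of them were already called at P5. The lost one lay 402.3 kb from the lower end, at percentile 6.2 of the P2 list. Sema3e had 4, 1 and 3 regions. Its promoter region and another 32.0 kb below the gene were missing at P5 alone, and at P2 they stood at percentiles 8.4 and 10.6, in the lowest part of the list.

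The other 4 class 3 genes were even from P2 to P8. Sema3c, a ligand with roles in heart and vessel development, had 3, 2 and 3 regions, and Sema3d had 4 at every age. The region Sema3c gained lay 1.0 kb below the gene, and it stood at the same percentile of the P8 list (57.1) as the promoter region beside it. Both also stood at 66.3 and 55.8 in the inputs of that list, so the gained region may not be a separate peak. Whether it is one was not tested. Sema3g kept the same 3 regions at all ages. One of them, 9.3 kb into the gene, stood at percentiles 77.4, 52.6 and 3.8 at P2, P5 and P8. Sema3b kept its 1 region, at 80.5, 80.8 and 80.9.

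Class 4 semaphorins are membrane proteins, many of which signal through B plexins. Their 6 genes had 27, 22 and 25 regions, with 10 of 27 lost (37.0%, 21.5 to 55.8) and 8 of 25 gained (32.0%, 17.2 to 51.6). Over all genes 31.7% were lost and 19.0% gained, inside both intervals. Sema4d, a ligand of Plxnb1 known from immune cells and bone, supplied 6 of the 8 gains and had 8, 7 and 11 regions. The gained regions lay inside the gene, 25.4, 35.5, 40.8, 46.1, 51.0 and 105.4 kb from its lower end, so that 5 of the 6 fell between 25.4 and 51.0 kb. Their percentiles in the P8 list were 45.6, 25.0, 46.6, 26.9, 39.3 and 5.9, all in its lower 50%, and only the region at 46.1 kb was called at P5. Within 1 kb of that region another, at 44.6 kb, was lost by P8. The other 2 losses lay 7.5 and 14.7 kb beyond the upper end. A region of Sema4d called at all ages stood at 58.8, 84.9 and 90.2 in the P2, P5 and P8 lists. It lay 91.8 kb from the lower end and 16.4 kb from the upper end, where this gene starts. The bone markers also went up, with 18 regions gained (43.9%, against 19.0% over all genes) and 3 lost (11.5%, against 31.7%). Their part in the Sema4d and Sema3a counts was not tested.

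Sema4f had 7, 4 and 4 regions. Of its 4 losses, 3 lay 36.2, 57.3 and 67.3 kb below the lower end of the gene and 1 was 6.0 kb inside it. The loss at 36.2 kb had stood at percentile 57.8 of the P2 list and was not called at P5. The promoter region of Sema4f stayed, at 88.9, 79.0 and 74.5. Sema4b had 7, 7 and 5 regions and lost the 2 that lay 26.4 and 15.3 kb below the gene. Sema4a had 3 at every age, with a loss 13.9 kb inside the gene that had stood at 62.0 at P2 and 4.7 at P5. It also gained a region over an internal promoter window, at 10.9 in the P8 list. Sema4c kept its 1 region, and Sema4g had 1 at P2 and P8 and none at P5.

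Class 5 semaphorins carry thrombospondin repeats, and the 2 genes differed. Sema5a, a guidance cue that can attract or repel, had 16, 18 and 16 regions, with 4 lost and 4 gained. Its region 82212 bp beyond the gene stood at 93.0, 92.2 and 91.2, and no ligand region stood higher at P2. Among its gains was one 69894 bp beyond the gene, at 72.3 in the P5 list and 60.0 in the P8 list. Sema5b had 8, 4 and 3 regions, all in contact with the gene, with 5 lost and none gained, a balance of -5 that was -3 with lists of equal length. Its promoter region was among the losses, at 53.8 in the P2 list and 20.2 in the P5 list. The 3 regions of Sema5b left at P8 stood at 7.1, 26.4 and 5.7, all in the lower 50% of that list.

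Class 6 semaphorins span the membrane and bind A plexins. Their 4 genes had 43, 33 and 26 regions, with 21 of 43 lost (48.8%, 34.6 to 63.2) and 4 of 26 gained (15.4%, 6.15 to 33.5). The 31.7% lost over all genes lies below the first interval and the 19.0% gained inside the second. Sema6d, a ligand of Plxna1, had 18, 16 and 11 regions over a gene of 577.8 kb, with 8 lost and 1 gained. That balance of -7 was -1 with lists of equal length and -4 at an IDR of at most 0.01. Of the losses, 5 lay inside the gene, at 134.6, 279.6, 329.8, 561.5 and 572.6 kb from its lower end. The one at 279.6 kb stood at percentile 52.0 of the P2 list and was called at P2 alone, while its neighbour at 280.2 kb was called at all ages, at 63.4, 67.3 and 70.4. The one at 329.8 kb stood at 23.7 at P2 and 79.8 at P5 before it left the list. The 3 losses outside the gene lay 18.4 kb below it and 39.2 and 80 kb above it. A region kept at all ages, 464.9 kb into Sema6d, stood at 13.1, 34.0 and 54.3.

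Sema6a, which acts through Plxna2 and Plxna4, had 19, 14 and 13 regions, with 9 lost and 3 gained. That balance of -6 was -2 with lists of equal length and -10 at an IDR of at most 0.01. The losses had low places in the P2 list, from percentile 1.8 to 39.3. Of the 9, 6 lay outside the gene, at 25.8 to 76.1 kb below it and 3.5 kb above it, and 3 lay inside. The 3 gains all lay outside the gene. At the upper end of the gene a pair of regions stayed, 2.2 kb (90.6, 88.8 and 86.1) and 0.8 kb (48.9, 50.4 and 48.9) inside that end. Sema6b had 4, 1 and 0 regions. All 4 lay within the gene's 17.3 kb or at its end, at 12.4, 43.1, 5.9 and 20.8 in the P2 list, and the last of these is the promoter region. Only the region at 11.8 kb was called at P5, at 13.4. The balance of Sema6b was -2 in place of -4 with lists of equal length and at an IDR of at most 0.01. Sema6c kept its 2 regions at all ages, and its promoter region stood at 90.0, 94.6 and 92.2.

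Sema7a, which is held to the membrane by a lipid anchor and binds Plxnc1, had 4, 3 and 3 regions. The loss, 5.2 kb into the gene, had stood at 1.9 at P2. The promoter region of Sema7a stayed, at 69.0, 28.7 and 57.7.

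**Figure D3:**
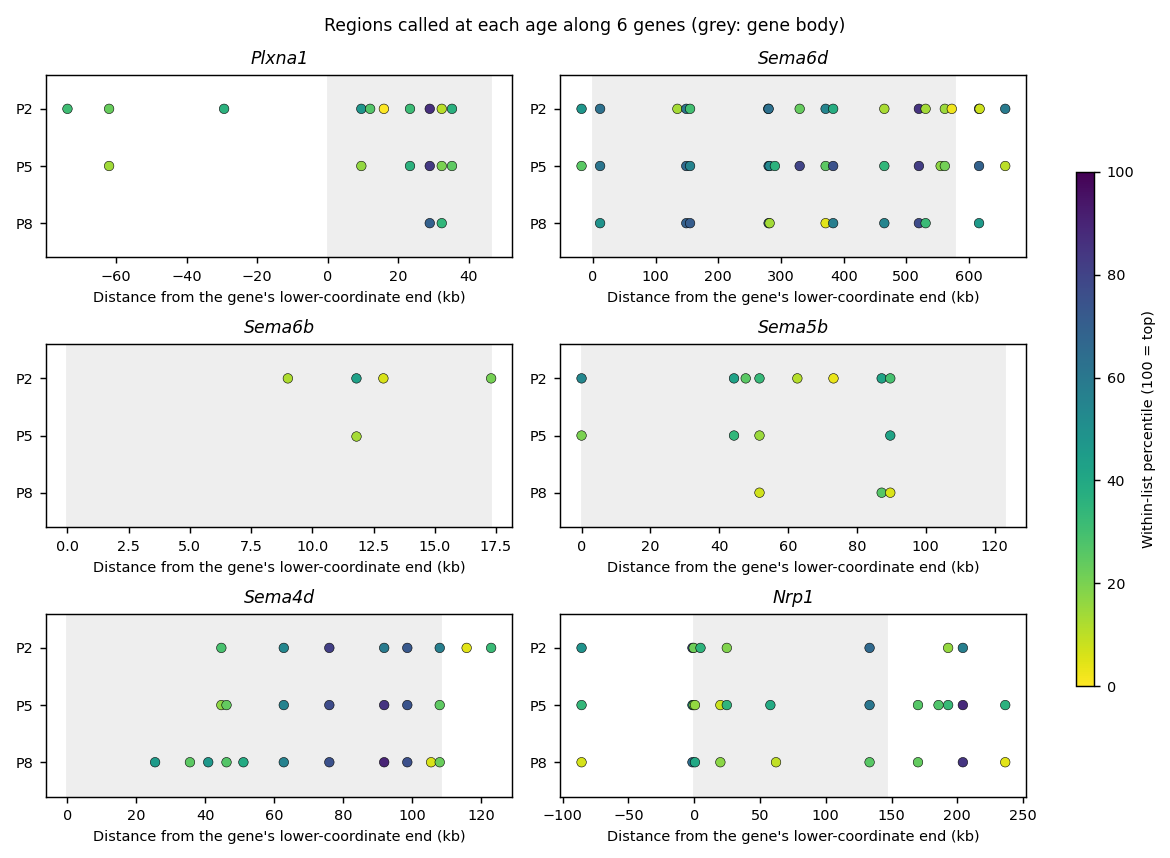
Regions called at P2, P5 and P8 (rows of points) along 6 genes, by distance of the region's middle from the gene's lower-coordinate end in kb, with the gene body in grey and the within-list percentile as colour. Plxna1 and Sema6b thin out from P2 to P8, while 5 of the 6 regions gained at Sema4d lie between 25.4 and 51.0 kb.

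The plexins hold 70 regions, of which 59, 50 and 39 were called at P2, P5 and P8. From P2 to P8, 28 of 59 were lost (47.5%, 35.3 to 60.0) and 8 of 39 gained (20.5%, 10.8 to 35.5). The 31.7% lost over all genes lies below the first interval and the 19.0% gained inside the second. A net loss was seen at 8 of the 9 genes, where 38.1% of all genes had one in the full lists. It was seen at 5 of 9 with lists of equal length and at an IDR of at most 0.01. With the upper 50% of each list, it was seen at 1 of the 8 genes with a region. The share of all genes with a net loss was not taken in these other settings. The A plexins, which pair with neuropilins or bind class 6 semaphorins, had 38, 35 and 26 regions. Plxna1 had 10, 6 and 2 regions, with 8 lost and none gained. That balance of -8 was -6 with lists of equal length and at an IDR of at most 0.01, and 0 with the upper 50% of each list. Of the 8, 4 were gone by P5 and 4 were called at P2 and P5. The losses inside the gene lay 9.5, 12, 15.9, 23.3 and 35.2 kb from its lower end, and 3 others lay 29.4, 62.0 and 73.8 kb below it. They had stood between 0.2 and 48.0 in the P2 list, so none came from its upper 50%. The 2 regions that stayed lay 28.9 and 32.3 kb into Plxna1, the former at 86.6, 83.3 and 69.4 and the latter at 10.9, 20.1 and 34.3.

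Plxna4 had 19, 22 and 16 regions, all but 1 of its 24 in contact with the gene. Of its 5 losses, 2 were called at P2 alone, at 164.9 and 319.7 kb from the lower end. The one at 319.7 kb stood at 73.6 in the P2 list, the highest place of any lost region of the family. The other 3, at 183.8, 258.5 and 413.7 kb, were called at P5 too, the last at 61.2 and 52.1. The gains of Plxna4 lay 127.1 kb into the gene and 3.4 kb above its upper end. Regions that stayed ranged widely: the one at 117.0 kb stood at 89.5, 88.0 and 88.0, and the one at 35.3 kb at 53.7, 4.3 and 6.2.

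Plxna2, a receptor of Sema6a, had 8, 6 and 7 regions, with 5 lost and 4 gained, a balance of -1 that was 2 with lists of equal length. Its regions at both gene ends stayed, at 88.1, 85.6 and 83.0 and at 78.1, 68.6 and 63.6. Plxna3, which serves class 3 ligands with Nrp2, kept its 1 region.

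The B plexins, receptors of class 4 ligands, had 9, 7 and 5 regions. Of these, 5 of 9 were lost (55.6%, 26.7 to 81.1) and 1 of 5 gained (20.0%, 3.62 to 62.45). Both intervals hold the background of 31.7% lost and 19.0% gained. Plxnb3 had 2, 2 and 0. Its promoter region stood at 28.3 at P2 and 25.6 at P5, and a second, 8.9 kb into the gene, at 18.2 and 14.1. Plxnb1 had 3, 3 and 2 and lost the region 11.4 kb into the gene (55.4 at P2, 16.6 at P5). Plxnb2 had 4, 2 and 3, and its balance of -1 was 0 at an IDR of at most 0.01 and with lists of equal length. Its promoter region stayed, at 82.8, 69.7 and 79.4.

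Plxnc1, the receptor of Sema7a, had 7, 4 and 4 regions. The 3 losses lay 115.0 kb from the gene's lower end (39.2 kb from its upper end) and 46.6 and 47.3 kb above it. They had stood at 13.6, 18.6 and 25.3 in the P2 list, and the balance of -3 was -1 with lists of equal length. A region of Plxnc1 38.8 kb from the lower end, and 115.4 kb from the upper end where the gene starts, stood at 90.2, 89.9 and 81.4. Another 69.1 kb above the gene, also called at all ages, stood at 10.6, 32.1 and 65.0. Plxnd1, the receptor of Sema3e best known from blood vessels, had 5, 4 and 4 regions. A region 10218 bp beyond the gene was lost (19.9 at P2, 61.3 at P5), and one 11373 bp beyond it was gained (17.1 at P5, 65.9 at P8). These neighbours lie within 1 kb of each other. The balance of Plxnd1 was -1, but 1 at an IDR of at most 0.01 and with lists of equal length.

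The neuropilins had 23, 24 and 20 regions, with 9 of 23 lost (39.1%, 22.2 to 59.2) and 6 of 20 gained (30.0%, 14.5 to 51.9). The 31.7% lost and 19.0% gained over all genes lie inside these intervals. Nrp1, the co-receptor of Sema3a and of vascular endothelial growth factor, had 8, 13 and 9 regions. Its balance from P2 to P8 was 1, but -3 at an IDR of at most 0.01. From P2 to P5 it gained 6 and lost 1, and from P5 to P8 it gained 1 and lost 5. At its promoter, a region at 128357934 to 128358433 on chromosome 8 was called at P2 and P5 (22.0 and 19.8). The neighbouring region at 128358902 to 128359405, over the promoter window, was called at P5 and P8 (16.2 and 40.2). The first of these ended within 1 kb of the second. Of the other 3 losses, 2 lay inside Nrp1 and 1 was 46.1 kb above it. A region 57.4 kb above the gene was called at all ages, at 57.3, 88.0 and 84.5.

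Nrp2, the co-receptor of Sema3f, had 15, 11 and 11 regions, with 5 lost and 1 gained. All 5 losses had stood in the lower 50% of the P2 list, at 26.0, 10.3, 0.1, 1.3 and 32.1. The gained region lay 39.0 kb into the gene, at 47.2 in the P8 list, next to one at 40.2 kb that was called at all ages (81.3, 68.3 and 44.0). The promoter region of Nrp2 stayed, at 79.3, 73.1 and 72.8. A region 26.4 kb into the gene stood at 7.8, 34.8 and 60.4. With lists of equal length, the balance of Nrp2 was 2 in place of -4, and at an IDR of at most 0.01 it was 0.

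Promoter windows were followed through the lists as well. Of the 37 windows, 7 (18.9%) overlapped regions of only 1 or 2 ages, against 5.92% over all protein-coding genes, and 13 (35.1%) overlapped a region at all 3 ages, against 46.9%. The remaining 17 overlapped none. The 7 windows belong to 5 ligands and 2 receptors. Sema6b was called at P2, Sema5b and Plxnb3 at P2 and P5, Sema3e and Sema4g at P2 and P8, Nrp1 at P5 and P8, and Sema4a at P8. For Sema3e these are the ages of a joined region 864 bp wide, whose P2 and P8 peaks may not both reach the window. The ages of the other windows are also those of the joined region. The regions over the 7 windows stood at or below percentile 53.8 in every list that held them, with Sema4g at 28.7 and 11.3. The 13 windows called throughout stood between 55.1 and 94.6, except Sema7a at P5. Genes with several windows are counted once per window, so the windows are not independent, and no interval or test is given for their shares. In RefSeq's table no window was given for Plxna1, Plxna4, Sema3b, Sema3f and Sema6a.

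**Figure D4:**
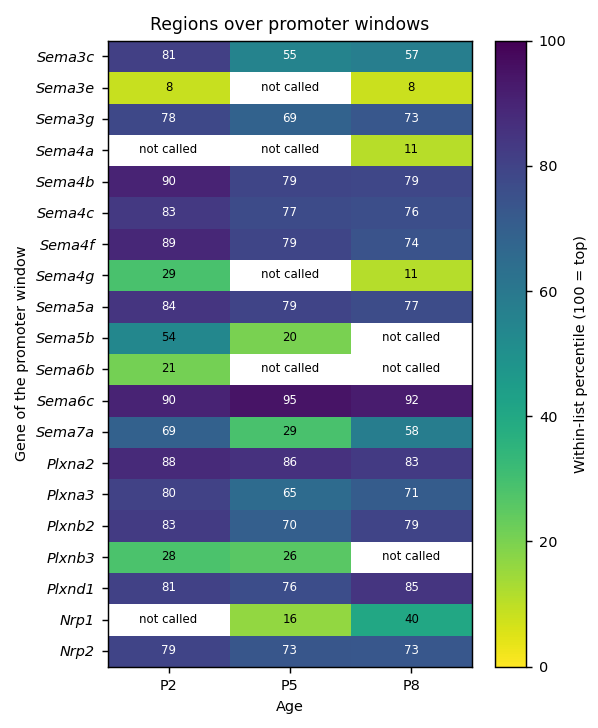
Within-list percentile (colour and rounded number, 100 at the top) of the region over each gene's promoter window at P2, P5 and P8, for the 20 windows that overlap a region at any age. The 7 windows with an age marked as not called stand at or below percentile 53.8 where they were called.

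Most of the family's regions lay away from gene ends. Only 27 of the 253 (10.7%, 7.44 to 15.1) had their middle within 1 kb of an end of any gene, against 21.9% over all genes, and 184 (72.7%, 66.9 to 77.8) touched the gene, against 67.1%. Regions farther than 1 kb from gene ends were lost at 82 of 181 (45.3%, 38.2 to 52.6), against 38.1% over all genes in that position. Near gene ends 4 of 25 were lost (16%, 6.403 to 34.7), against 13.3%. Outside the gene the losses were 29 of 52 (55.8%, 42.3 to 68.4) and inside it 57 of 154 (37.0%, 29.8 to 44.9), against 36.9% and 29.3% over all genes. Ligands lost 18 of 32 regions outside the gene and 31 of 92 inside it, and receptors lost 11 of 20 and 26 of 62.

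The family's regions also ranked lower than others at P2. Their median percentile in the P2 list was 42.9, against 51.3 over all genes, with 45.3 at ligands and 36.3 at receptors. In the P8 list it was 45.8, against 51.2. Lost regions had a median of 23.4 in the P2 list, against 23.2 over all genes, and gained ones 25.9 in the P8 list, against 20.8. In the lower 50% of the P2 list, 77 of 121 regions were lost (63.6%, 54.8 to 71.7), against 57.2% over all genes, and in the upper 50% 9 of 85 were lost (10.6%, 5.67 to 18.9), against 7.53%. Lost here means absent from the whole P8 list, not from its upper 50%. Within either part of the list the background was inside the interval. How far the place in the list and the distance from gene ends account for the family's share of losses was not tested beyond these values. The median difference between the places a family region had in the 2 input lists of an age was 5.40, 5.90 and 5.86 points for the P2, P5 and P8 lists.

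The 9 lost regions from the upper 50% of the P2 list belonged to Plxna4 (73.6 and 61.2), Sema4a (62.0), Sema6d (58.7 and 52.0), Sema4f (57.8), Plxnb1 (55.4), Sema5a (54.6) and Sema5b (53.8). The 4 gained regions from the upper 50% of the P8 list belonged to Plxnd1 (65.9), Sema5a (60.0 and 52.4) and Sema3c (57.1). None of the 8 losses of Plxna1 was among them.

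**Figure D5:**
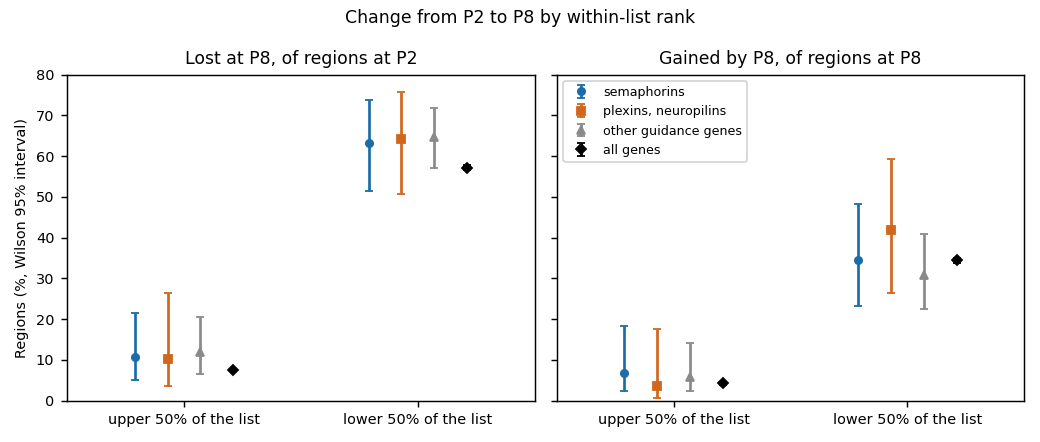
Share of regions lost at P8 (left, of those called at P2) and gained by P8 (right, of those called at P8) in percent with Wilson 95% intervals, by upper and lower 50% of the list, for semaphorins, plexins with neuropilins, other guidance genes and all genes. In the lower 50% of the P2 list 57.2% of all genes' regions were lost, and in the upper 50% 7.53%.

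Genes that act with or downstream of the receptors had shares of lost and gained regions near the background. Of a list of 40 such genes, 38 had regions (none at L1cam and Cd72), and the 3 lists held 160, 144 and 141 of these. Among them 45 of 160 were lost (28.1%, 21.7 to 35.5) and 26 of 141 gained (18.4%, 12.9 to 25.7), with the background of 31.7% and 19.0% inside both intervals. By gene, 15 had a net loss (39.5%, against 38.1% of all genes with a region). A net gain was seen at 10 (26.3%, against 13.9%), and 13 were even. The 4 lowest balances were at Crmp1 (5, 1 and 0 regions), Dpysl2 (11, 9 and 7), Dpysl5 (9, 8 and 6) and Fyn, a kinase gene (14, 13 and 11). The first 3 are collapsin response mediators, which carry Sema3a signals to the cytoskeleton. The other 2 genes of that group each had a balance of -1, Dpysl3 with 5, 7 and 4 regions and Dpysl4 with 2, 2 and 1. The largest net gains, 2 regions each, were at Mical3, an oxidoreductase of the MICAL family, which acts on actin below plexins (16, 16 and 18), and Chl1, an adhesion protein that binds neuropilins (4, 4 and 6). The small GTPase gene Rac1 had 1, 1 and 2 regions, and Rhoa kept its 1.

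Other guidance families, the Eph receptors, ephrins, Slits, Robos and netrins with their receptors, also had a share of losses above the background. Of 42 genes, 41 had regions, of which the lists of P2, P5 and P8 held 240, 196 and 162. They lost 111 of 240 (46.2%, 40.0 to 52.6, against 31.7%) and gained 33 of 162 (20.4%, 14.9 to 27.2, against 19.0%). Of the 41 genes, 32 had a net loss (78.05%, against 38.1% of all genes with a region) and 4 a net gain (9.76%, against 13.9%). These genes also had a median of 6 regions, against 2 over all genes. Their median percentile in the P2 list, 39.4, was also below that over all genes. The intervals of the semaphorin family and of these genes overlapped for losses and for gains, so no difference between the sets was shown.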

How the data were processed

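ATAC-seq libraries were made from cochleae of CD1 mice. Per the submitters' processing notes, the tools were MACS2 2.1.0, Subread 1.4.6-p3 and Trimmomatic 0.33, on build mm10. The settings, the shift of reads for the transposase and the animals behind each input were not given in the sources used here. In all, the authors deposited 1 list of 499 bp peaks per age, in the layout of IDR (irreproducible discovery rate), a method that retains peaks ranked alike in 2 inputs. The ranking value in the deposited lists is a −log10 p-value, checked to be the lower of both inputs' values on each line. The deposited IDR values are also −log10, and the deposited score is a scaled IDR. A longer list can follow from deeper sequencing, and counts were not used here.

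From these lists, Python 3.11.15 with pandas 2.3.3 and numpy 2.4.6 merged peaks, assigned genes from a RefSeq table of GRCm38.p6 (21887 protein-coding genes, no exons or strand) and counted regions called, lost and gained. The assignment was tested on simulated regions. Starts were taken to count from 0, and the text counts from 1. Members and lists were chosen with earlier results of these data known. All 31 members are named. Those with a net change of at least 3 were described region by region, and from the downstream list the genes with the largest changes, Rac1 and Rhoa being added after their values were seen. Promoter windows came from RefSeq, with at most 6 shown. Alternatives were IDR at most 0.01, lists of equal length, the upper 50% of each list, an overlap of 250 bp, a distance of 20 kb, the nearest gene end and every overlapping gene. The full width of the inputs' peaks, changes paired within 1 kb, and shares by rank and position were chosen after seeing the data.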

Additional observations from a re-analysis of the deposited data

How the results depend on the processing

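With lists of equal length, the balances of 18 of the 31 genes from P2 to P8 stayed within 1.5 times, 9 moved by more and 4 turned, against 14, 14 and 3 at an IDR of at most 0.01. The family's gains went to 31.6% of P8 regions, and 9 genes had a net gain in place of 3 (5 at an IDR of at most 0.01), while 12 had a net loss in place of 18. Shares of all genes with a net loss or gain were not taken in these settings. Losses from P2 to P5 went to 19.3% for the family (14.0 to 25.95) and 19.0% for ligands (12.5 to 27.8). The 18.6% over all genes lay inside both intervals. Losses from P2 to P8 went to 20.3% for the downstream list and 36.4% for the other guidance genes, against 24.1% over all genes. With the upper 50% of each list, the other guidance genes lost 39.3% and receptors 31.03% from P2 to P8, against 28.4% over all genes. In that setting receptors lost 20.0% from P5 to P8, against 18.7%. Net changes of single genes are small counts, and several turned. At an IDR of at most 0.01 they were 1 at Sema3e, 1 at Plxnd1 and -3 at Nrp1. With lists of equal length they were 2 at Sema3e, 2 at Plxna2, 1 at Plxnd1 and 2 at Nrp2. With the upper 50% they were -1 at Sema3a, -1 at Sema4d, 1 at Sema7a, 1 at Plxna2, 1 at Plxnc1, 2 at Plxnd1 and -1 at Nrp1. The cause was not tested in these cases, although fewer peaks enter each of these settings. Counting a region as called where the full peak of either input overlaps it left the family at 81 of 208 lost (38.9%, against 30.45% over all genes). In that setting 33 of 160 were gained (20.6%, against 18.15%). An opposite change lay within 1 kb of 4 of the 86 lost and 4 of the 35 gained regions. The share of such neighbours over all genes was not taken. No paired analysis was possible because there is 1 list per age, which also leaves no way to omit a mouse.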
